A study of Mus musculus with 9 samples.

Results

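The posterior patterning genes of differentiating mouse embryonic stem (ES) cells are described here: 33 genes of the 4 Hox clusters together with Cdx1, Cdx2, Cdx4 and Nkx1-2, 37 of the 18194 genes with a probe set of 1 symbol. A gene was a member if its symbol on the array was Hoxa, Hoxb, Hoxc or Hoxd followed by a number, or was that of the 3 Cdx genes or Nkx1-2. The members comprised 9 HoxA, 9 HoxB, 7 HoxC and 8 HoxD genes, and each was read from its brightest probe set over the 9 arrays without any filter on signal. The study used 1 cell system in which doxycycline governed a constitutive, active protein kinase A, and the labels do not state whether the kinase was on with or without the drug, so the groups are named by medium. Undifferentiated ES cells had been kept with leukemia inhibitory factor and 1 µg/ml doxycycline. Differentiation took place in serum medium without the factor, either with doxycycline (Dox+) or without it (Dox-), and RNA was taken on days 0.5, 1.5, 2.5 and 3.5. Every group was a single array, and nothing in the labels describes separate cultures for one condition, so the 4 days stand in for repeats wherever a test was made.

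Hox genes encode homeodomain transcription factors that give cells their position along the head-to-tail axis. They lie in clusters in which genes of low paralog number are switched on early and toward the head, and genes of high number later and toward the tail. The Cdx proteins are homeodomain factors of the primitive streak, tail bud and trophectoderm that bind and activate Hox genes, and Nkx1-2 marks the caudal epiblast that feeds the growing trunk.

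Signals were intensities scaled by the array software to an average of 100, with no absolute zero of expression. A signal of 50 was used as a working threshold for a clear level. Between 41.6% and 44.2% of all genes reached it on each array, and array medians over genes ran from 24.6 to 30.5. Differences between media are Dox- minus Dox+ on the log2(signal + 16) scale, which understates changes of dim genes, and at least 2-fold means a difference of 1 or more on that scale. In bulk RNA, more cells expressing a gene and more transcript per cell cannot be told apart.

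The sequence just upstream of 5 members is shown because these genes stand for the early and the late parts of the response described below: Cdx2, Nkx1-2 and Hoxb1 were among the 4 members apart on day 2.5, and Hoxa9 and Hoxd9 had the highest Hox differences on day 3.5. The 250 bases before the annotated start are from RefSeq (GRCm38.p6), 5′ to 3′ on the gene's strand, with each CG pair in capitals.
Cdx2, chr5:147307250-147307499, minus strand: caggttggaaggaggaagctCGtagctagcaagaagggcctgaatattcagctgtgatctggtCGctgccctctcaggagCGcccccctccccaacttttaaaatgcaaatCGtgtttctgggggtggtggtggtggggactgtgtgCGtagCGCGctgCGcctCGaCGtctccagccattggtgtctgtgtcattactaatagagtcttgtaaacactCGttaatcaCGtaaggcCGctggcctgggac
Nkx1-2, chr7:132599638-132599887, minus strand: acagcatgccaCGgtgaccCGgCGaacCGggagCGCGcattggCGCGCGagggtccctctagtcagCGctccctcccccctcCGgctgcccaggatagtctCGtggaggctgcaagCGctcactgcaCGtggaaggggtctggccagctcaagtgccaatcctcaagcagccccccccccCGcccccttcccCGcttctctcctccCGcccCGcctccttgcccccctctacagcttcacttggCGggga
Hoxb1, chr11:96365508-96365757, plus strand: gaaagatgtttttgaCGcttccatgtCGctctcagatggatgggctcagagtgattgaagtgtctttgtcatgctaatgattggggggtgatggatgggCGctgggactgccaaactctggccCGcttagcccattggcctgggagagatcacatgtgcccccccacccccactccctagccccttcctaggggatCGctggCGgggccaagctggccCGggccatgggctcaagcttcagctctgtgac
Hoxa9, chr6:52227371-52227620, minus strand: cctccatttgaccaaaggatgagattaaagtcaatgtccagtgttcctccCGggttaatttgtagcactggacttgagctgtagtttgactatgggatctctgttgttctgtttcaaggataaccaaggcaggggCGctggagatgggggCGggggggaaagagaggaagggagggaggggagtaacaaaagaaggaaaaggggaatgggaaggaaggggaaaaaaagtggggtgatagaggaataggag
Hoxd9, chr2:74697513-74697762, plus strand: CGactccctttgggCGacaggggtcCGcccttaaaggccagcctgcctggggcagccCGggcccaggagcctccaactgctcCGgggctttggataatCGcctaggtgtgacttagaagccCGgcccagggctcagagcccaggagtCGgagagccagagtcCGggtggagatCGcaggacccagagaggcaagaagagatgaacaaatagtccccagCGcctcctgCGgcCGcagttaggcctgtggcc
The windows held 13 CG pairs for Cdx2, 19 for Nkx1-2, 7 for Hoxb1, 3 for Hoxa9 and 13 for Hoxd9. Over 32841 windows of this length the median was 6 pairs. Windows were kept for 22 of the 37 members (24 windows, 2 genes having a pair of starts), and their median was 13 pairs with a range of 2 to 35. Any member windows on a single chromosome were left out beforehand, a step not applied to the 32841 windows. Cdx2, Cdx4 and Nkx1-2 had a window among the 24 and Cdx1 had none. The CG counts of members and the motif counts below therefore do not cover Cdx1.

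Short motifs were searched on both strands of the same windows. TTTATG, a form bound by Cdx proteins, was present in 3 of the 24 member windows, those of Hoxa7, Hoxd3 and Hoxd11, and in 10.8% of all windows. TGATNNAT, a form bound by Pbx and Hox proteins together, was also in 3 of 24, those of Hoxa2, Hoxb1 and Hoxd11, and in 7.69% of all windows. The match upstream of Hoxb1 reads TGATGGAT and begins 162 bases before the start. AGGTCA, which retinoic acid receptors bind as a repeat, was in 5 of 24 member windows, those of Hoxb4, Hoxc4, Hoxd3, Hoxd8 and Hoxd10, and in 14% of all windows. TATAAA, the TATA box, was in 2 of 24, those of Hoxa10 and Hoxd13, and in 12.4% of all windows. TTTATG and TGATNNAT were absent from the windows of Cdx2, Nkx1-2, Hoxa9 and Hoxd9, which says only that these letters are not in those 250 bases.

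Cdx2 and Nkx1-2 led the difference between media, from day 2.5 on. Cdx2, which directs both posterior axial and trophectoderm development, gave a signal of 5.2 in undifferentiated cells. In Dox+ medium its signal was 13.9, 11.2, 4.9 and 42.0 from day 0.5 to day 3.5, and in Dox- medium it was 5.1, 13.1, 225.2 and 914.7. Its Dox+ and Dox- values overlapped on the first 2 days, while both late Dox- arrays lay above all 7 others. The log2 differences by day were -0.50, 0.10, 3.53 and 4.0. A second, dimmer probe set of Cdx2 gave 0.94 on day 2.5, below 2-fold, and 2.83 on day 3.5.

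Nkx1-2 gave 8.1 in undifferentiated cells, then 22.4, 7.4, 8.0 and 46.1 in Dox+ medium and 25.4, 28.8, 218.3 and 771.4 in Dox- medium. The late Dox- arrays were again above all others, and day 1.5 already showed a difference of 0.94, below 2-fold. On day 2.5 the difference was 3.29 and on day 3.5 it was 3.66. Its other probe sets never rose above signals of 6.2 and 3.6. They differed by -0.04 and -0.19 on day 2.5 and by 0.33 and 0.01 on day 3.5. The result for Nkx1-2 thus rests on 1 probe set.

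Both genes were also highest on the last day of the Dox+ course. Against undifferentiated cells, Dox+ day 3.5 was higher by 1.45 for Cdx2 and 1.37 for Nkx1-2, and these were the 2 members of 37 at least 2-fold higher, where 6.36% of all genes were. None was at least 2-fold lower. No Hox gene was among the 2. The Dox- array of day 2.5 lay above the Dox+ array of day 3.5 by 2.06 for Cdx2 and 1.92 for Nkx1-2, while the Dox- array of day 1.5 lay below it, so the last Dox+ values of both genes fell between the Dox- values of day 1.5 and day 2.5.

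Cdx4 stood apart a day later than Cdx2. This X-linked member of the family gave 4.4 in undifferentiated cells, 10.3, 4.5, 0.3 and 5.2 in Dox+ medium, and 9.2, 7.8, 7.6 and 167.2 in Dox- medium. Only the Dox- array of day 3.5 was above 10.3, and its difference between media went from 0.53 on day 2.5 to 3.11 on day 3.5. Cdx1, usually active in the streak and early mesoderm, gave 3.6 in undifferentiated cells, 0.7, 0.3, 1.4 and 6.0 in Dox+ medium and 0.3, 0.5, 12.5 and 1.4 in Dox- medium. Its highest value was the Dox- array of day 2.5, and its difference on day 3.5 was -0.34. In all, 2 of the 3 Cdx genes reached 50, and for Cdx1 no array gave a clear signal.

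**Figure D1:**
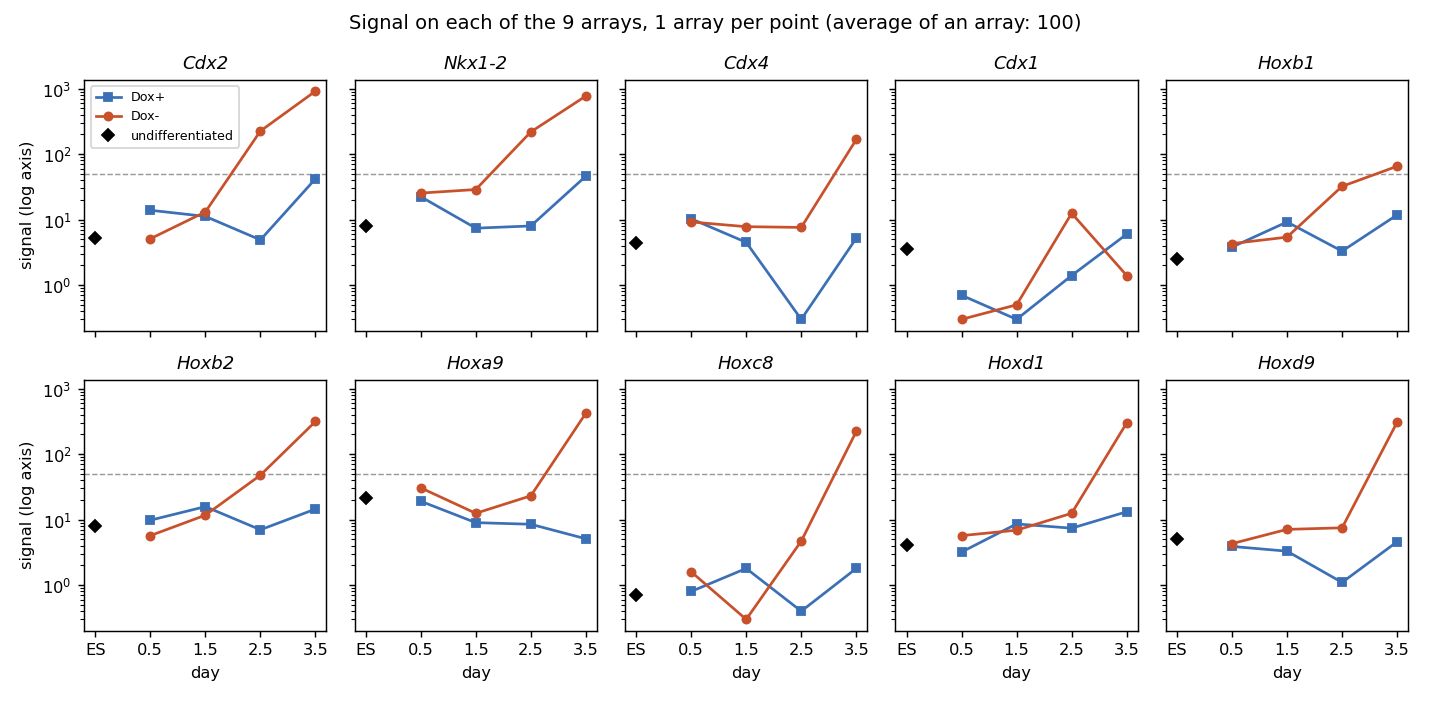
Signal of 10 members on each array (log axis) against day, with undifferentiated cells at the left (ES), Dox+ as blue squares, Dox- as red circles and a dashed line at 50. Each point is 1 array with no error estimate. Cdx2 and Nkx1-2 passed 50 in Dox- medium on day 2.5, Hoxb2 was close to it at 47.7, and all 6 Hox genes shown and Cdx4 were past it on day 3.5.

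Hox genes were dim on all arrays but Dox- day 3.5. Of the 33, none had a signal of 50 or more on the undifferentiated array, on the 4 Dox+ arrays or on the first 3 Dox- arrays, and 14 had on the Dox- array of day 3.5. The median Hox signal was 4.1 in undifferentiated cells and 3.9, 4.0, 3.3 and 4.6 along the Dox+ course. Along the Dox- course it was 4.3, 3.8 and 4.2 up to day 2.5 and 37.8 on day 3.5. The brightest Hox gene gave 38.6 or less on any Dox+ array, 47.7 on the Dox- array of day 2.5 and 422.1 on that of day 3.5. Of the 33, 28 had their highest value of the 9 arrays on Dox- day 3.5, and the other 5 were Hoxa3, Hoxb7, Hoxb13, Hoxc13 and Hoxd12. The share of all genes with their highest value on that array was not counted. Some of the 28 were dim and only slightly higher there, such as Hoxc6 (15.3, at most 12.8 elsewhere) and Hoxa2 (11.9, at most 9.6).

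Counted over all 37, 15 members (14 Hox genes and Cdx4) reached 50 on the Dox- array of day 3.5 and on no other, while 1.28% of all genes did (232 genes). In the comparison of media, no member was at least 2-fold higher in Dox- on day 0.5 (0.066% of all genes) or on day 1.5 (0.846%). On day 2.5 there were 4 of 37 (2.1% of all genes) and on day 3.5 there were 21 of 37 (3.17%), 18 of them Hox genes. None was at least 2-fold lower on any day. The median difference over members by day was -0.03, -0.01, 0.11 and 1.55, against -0.02, 0.01, 0.00 and 0.03 over all genes. From day 2.5 to day 3.5 within Dox- medium, 21 of 37 members were at least 2-fold higher (2.37% of all genes). From undifferentiated cells to Dox- day 2.5, 4 of 37 were (6.13% of all genes), the same 4 that differed between media that day. Comparisons that share an array, such as these, are not independent of each other.

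The 4 members apart on day 2.5 were Cdx2, Nkx1-2 and the low-numbered end of HoxB, Hoxb1 and Hoxb2. Hoxb1, which specifies part of the hindbrain and is an early Hox gene of the streak, gave 2.5 in undifferentiated cells, 3.8, 9.2, 3.3 and 11.8 in Dox+ medium, and 4.3, 5.4, 32.2 and 65.2 in Dox- medium. Hoxb2, its neighbour, gave 7.9 in undifferentiated cells, 9.8, 15.8, 7.0 and 14.5 in Dox+ medium, and 5.7, 11.7, 47.7 and 315.1 in Dox- medium. For both genes the last 2 Dox- arrays were above all others. The differences were 1.32 and 1.47 on day 2.5 and 1.55 and 3.44 on day 3.5, so Hoxb1 differed about as much on both days and Hoxb2 more on day 3.5.

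By paralog number, the count on day 2.5 was 2 of 7 genes for groups 1 to 3, 0 of 12 for groups 4 to 8 and 0 of 14 for groups 9 to 13. A day later it was 4 of 7, 6 of 12 and 8 of 14, with medians of 1.55, 0.92 and 1.47. Genes of low number were thus the only Hox genes apart on day 2.5, while on day 3.5 all 3 ranges held some. The difference between the ranges was not tested. The signals of Hoxb1 and Hoxb2 on day 2.5 were below 50, and with a pseudocount of 64, or with a signal of 50 asked of the brighter array, only Cdx2 and Nkx1-2 remained. With a pseudocount of 1, which gives dim signals more weight, the day 2.5 count was 15 of 37. These were not only genes of low number: Hoxa9 was 23.1 against 8.5 and Hoxd9 7.5 against 1.1. Differences above 0 that day were found for 6 of 7, 6 of 12 and 11 of 14 genes of the 3 ranges. The order by paralog number on day 2.5 thus depends on the pseudocount.

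**Figure D2:**
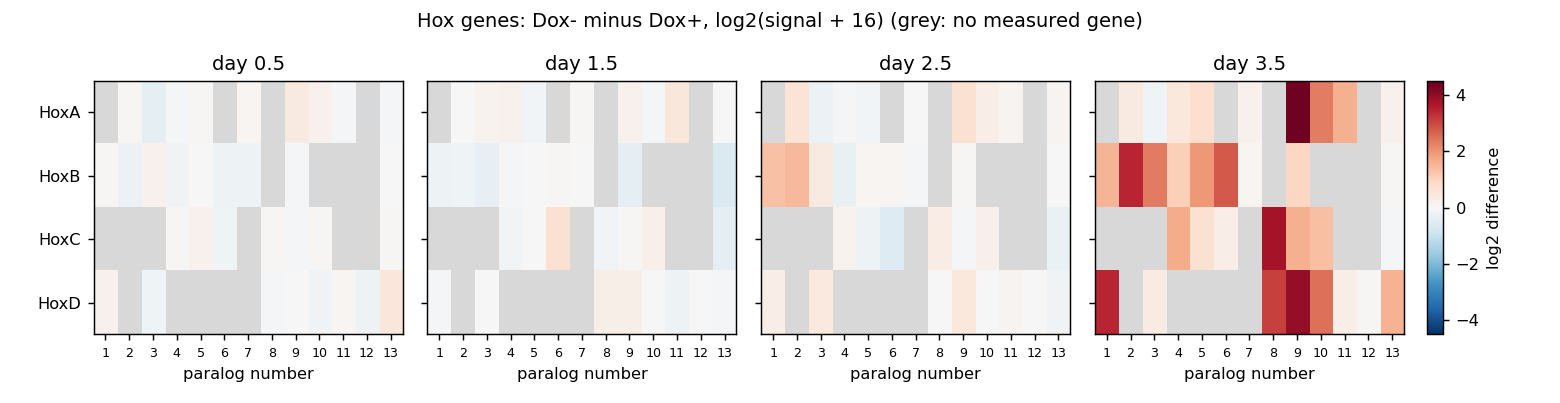
Dox- minus Dox+ difference on the log2(signal + 16) scale for each measured Hox gene, with clusters as rows, paralog numbers as columns and 1 panel per day; grey fields hold no measured gene. Colour appears on day 2.5 at Hoxb1 and Hoxb2, and on day 3.5 in all 4 clusters, with the highest value at Hoxa9 (4.38).

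On day 3.5 all 4 clusters held genes higher in Dox-, but in different stretches. HoxA had 3 of 9 genes at least 2-fold higher, and these lay next to each other: Hoxa9, Hoxa10 and Hoxa11, the genes of lower trunk, limb and reproductive tract. Hoxa9 gave 21.3 in undifferentiated cells, 19.1, 9.0, 8.5 and 5.1 in Dox+ medium, and 30.6, 12.5, 23.1 and 422.1 in Dox- medium. The Dox+ values were lower at the end than in undifferentiated cells, and the Dox- array of day 3.5 stood alone, at a difference of 4.38, the highest of all members. A second probe set of Hoxa9 gave 1.99. Hoxa10 followed with 18.8 in undifferentiated cells, 18.1, 6.3, 4.2 and 4.4 in Dox+ medium, 23.3, 5.4, 9.1 and 85.0 in Dox- medium and a difference of 2.31. The other probe set of Hoxa10 was dim, at 9.4 or less, and differed by 0.47. Hoxa11 gave 10.6 in undifferentiated cells, 11.5, 2.4, 6.0 and 3.3 in Dox+ medium and 10.0, 10.1, 7.8 and 42.7 in Dox- medium. Below 50 even at its highest, it differed by 1.60.

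Of the rest of HoxA, Hoxa5 alone reached 50. Hoxa5, a gene of lung and cervical development, gave 24.8 in undifferentiated cells, 24.7, 23.3, 38.6 and 25.7 in Dox+ medium and 26.1, 20.3, 34.7 and 54.3 in Dox- medium. It had the highest Hox signal in undifferentiated cells, and its difference on day 3.5 was 0.75. Its second probe set gave 1.47. Hoxa2, Hoxa3, Hoxa4, Hoxa7 and Hoxa13 lay between -0.20 and 0.46. The median of the 9 genes was 0.46.

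HoxB had 6 of 9 genes at least 2-fold higher, Hoxb1 to Hoxb6 without a gap, and a median of 1.55. Hoxb3 gave 6.1 in undifferentiated cells, 6.0, 12.6, 5.1 and 10.9 in Dox+ medium and 9.0, 6.0, 11.6 and 120.8 in Dox- medium, a difference of 2.35 on day 3.5. Its second probe set gave 1.03. Hoxb4, a gene known for expanding blood stem cells, was dim throughout. It gave 7.9 in undifferentiated cells, 16.6, 9.3, 9.3 and 2.1 in Dox+ medium and 13.1, 7.8, 4.2 and 22.4 in Dox- medium. Its difference of 1.09 rests on dim signals, and its other probe set gave 0.20. Hoxb5 gave 0.3 in undifferentiated cells, 0.8, 0.9, 0.6 and 1.1 in Dox+ medium and 0.5, 1.1, 1.6 and 50.1 in Dox- medium. Hoxb6 gave 3.4 in undifferentiated cells, 5.9, 3.8, 5.7 and 3.4 in Dox+ medium and 2.6, 4.4, 7.3 and 114.5 in Dox- medium. Both, genes of the cervical and thoracic region, had a single high array, Dox- day 3.5, and their differences were 1.95 and 2.75. Beyond them Hoxb7 differed by 0.08, Hoxb9 by 0.93 and Hoxb13 by 0.06, so Hoxb9 fell just short of 2-fold.

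HoxC had 4 of 7 genes at least 2-fold higher, Hoxc4, Hoxc8, Hoxc9 and Hoxc10, with a median of 1.37 over the cluster. Hoxc8, a thoracic gene, gave 0.7 in undifferentiated cells, 0.8, 1.8, 0.4 and 1.8 in Dox+ medium, and 1.6, 0.3, 4.7 and 222.3 in Dox- medium. Its difference of 3.74 came from a single array above 4.7. Hoxc4 gave 5.1 in undifferentiated cells, 0.5, 2.8, 1.2 and 0.4 in Dox+ medium and 1.2, 1.1, 3.4 and 36.2 in Dox- medium. Hoxc9 gave 1.5 in undifferentiated cells, 2.2, 1.1, 2.7 and 8.3 in Dox+ medium and 1.0, 1.9, 2.2 and 58.4 in Dox- medium. Hoxc10, a lumbar gene, gave 2.0 in undifferentiated cells, 1.4, 0.8, 0.4 and 4.8 in Dox+ medium and 1.9, 3.8, 3.0 and 37.8 in Dox- medium. Again Dox- day 3.5 alone was high, and the differences of these 3 were 1.67, 1.61 and 1.37, with Hoxc9 the one past a signal of 50. Hoxc5 and Hoxc6, which lie between Hoxc4 and Hoxc8, differed by 0.68 and 0.30, and Hoxc13 by -0.10.

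HoxD had 5 of 8 genes at least 2-fold higher and the highest cluster median, 2.02. Hoxd1, at the low end, gave 4.1 in undifferentiated cells, 3.2, 8.6, 7.4 and 13.2 in Dox+ medium, and 5.7, 6.9, 12.5 and 300.2 in Dox- medium, a difference of 3.44. Hoxd9 gave 5.0 in undifferentiated cells, 3.9, 3.3, 1.1 and 4.6 in Dox+ medium, and 4.3, 7.1, 7.5 and 307.4 in Dox- medium, a difference of 3.97. Dox- day 3.5 again stood alone for both genes. Hoxd8 gave 3.6 in undifferentiated cells, 5.2, 4.8, 9.7 and 5.2 in Dox+ medium and 4.3, 9.1, 9.9 and 163.3 in Dox- medium. Hoxd10 gave 0.5 in undifferentiated cells, 2.3, 0.4, 0.7 and 0.2 in Dox+ medium and 0.4, 0.3, 0.9 and 74.5 in Dox- medium. These neighbours of Hoxd9 differed by 3.08 and 2.48, and a second probe set of Hoxd8 gave 2.31. Hoxd13, the gene of digits and genital tubercle, gave 17.9 in undifferentiated cells, 0.8, 15.2, 11.3 and 6.2 in Dox+ medium and 8.1, 14.4, 8.2 and 49.7 in Dox- medium. Its difference was 1.57, its dim values varied from array to array in both media, and its other probe set differed by 0.02. Hoxd3, Hoxd11 and Hoxd12 lay between 0.04 and 0.37.

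In all, 19 Hox genes were at least 2-fold apart on some day or reached a signal of 50. The other 14 gave signals of 0.2 to 19.5 over the 9 arrays and day 3.5 differences of -0.20 to 0.93. Among the 13 members with more than 1 probe set, probe sets opposed each other in sign on day 3.5 for Hoxa3 only. Its brightest gave -0.20 on day 3.5 and the others 0.23, 0.11 and 0.39, all of them dim.

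The genes on either side of the clusters were examined next. By RefSeq gene order, the 5 nearest measured protein-coding genes on each side of each cluster were taken, 40 in all. On day 3.5 their median difference was -0.01 with a range of -0.95 to 1.41, and 1 of the 40 was at least 2-fold higher in Dox-, where 3.17% of all genes were. That gene was Skap1, an adaptor of T cell signalling next to Hoxb1, at 41.2 against 5.6. Next to Hoxa13, Evx1, a homeobox gene of the streak, was 333.7 against 6.6 on day 2.5 and 305.7 against 149.7 on day 3.5. No HoxA gene was 2-fold apart on day 2.5. Mtx2, a mitochondrial import gene next to Hoxd1, differed by 0.14, and Skap2 next to the low end of HoxA by -0.29. Beyond Skap2, Snx10 was 149.8 against 304.2, a difference of -0.95. From within the clusters, 3 non-coding antisense transcripts were measured. On Dox- day 3.5 the signal was 30.5 for Hoxa11os, 26.6 for Hoxb5os and 44.4 for Hoxd3os1, and the differences were 1.5, 0.95 and 1.66. All 3 stayed under 50 on every array, and whether the probes keep the strands of overlapping transcripts apart was not tested.

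**Figure D3:**
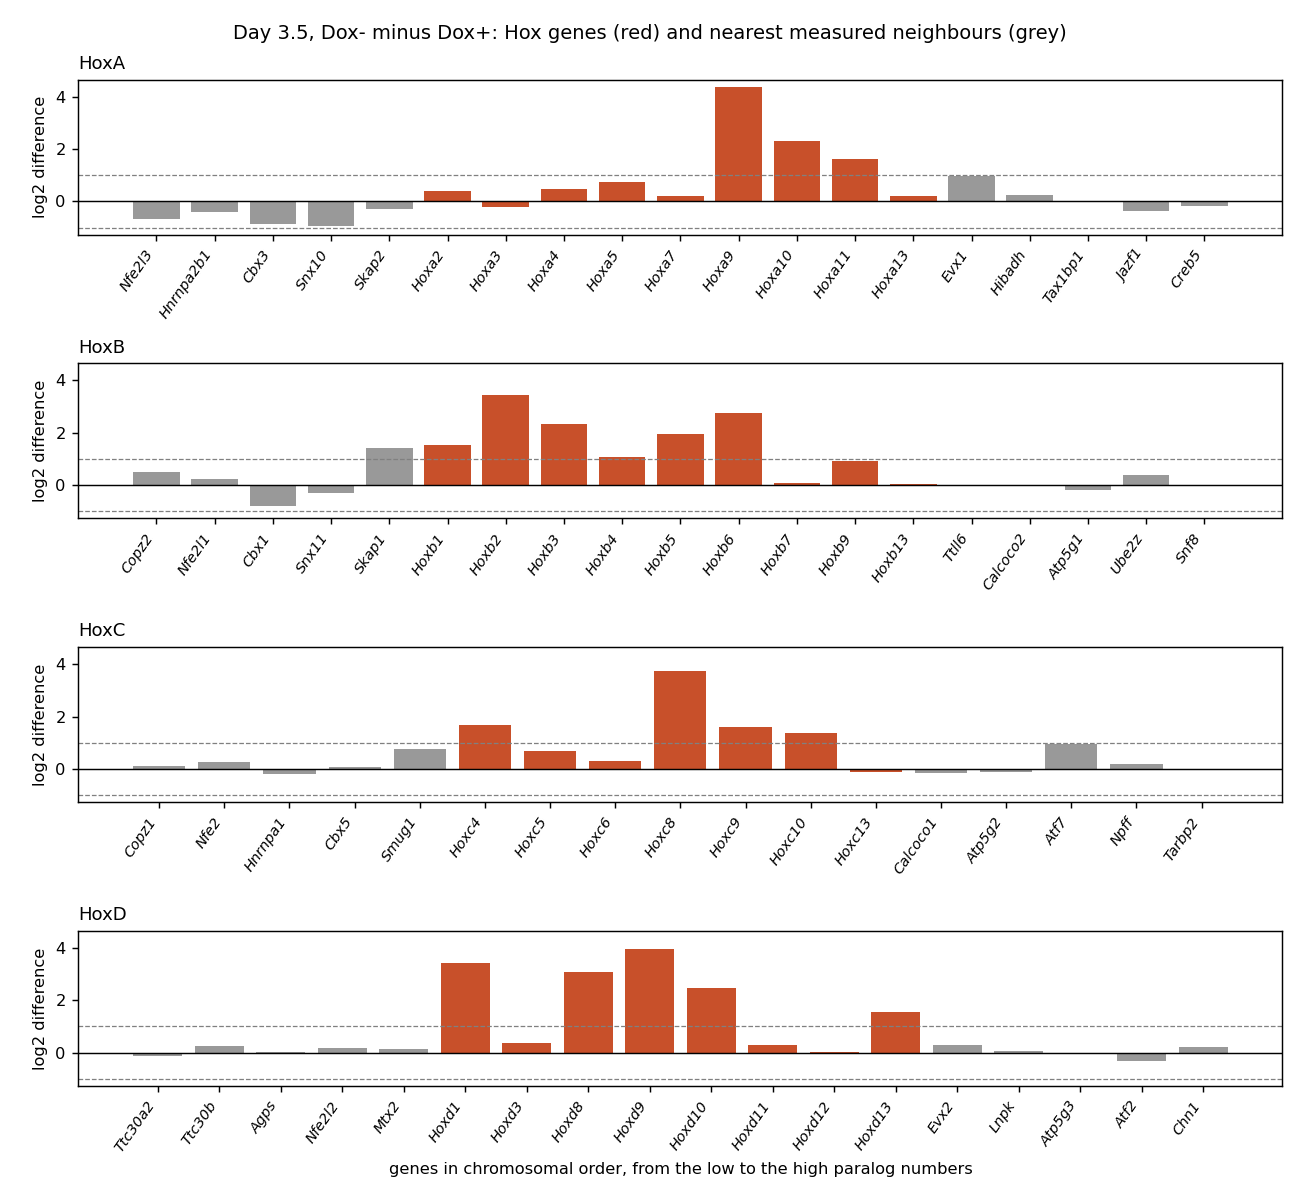
Dox- minus Dox+ difference on day 3.5 (log2(signal + 16) scale) along each cluster, in chromosomal order from low to high paralog numbers, for Hox genes (red) and the 5 nearest measured genes on each side (grey). Each bar is 1 pair of arrays, and dashed lines mark 2-fold. The red bars past 2-fold form runs from Hoxa9 to Hoxa11, Hoxb1 to Hoxb6, Hoxc8 to Hoxc10 and Hoxd8 to Hoxd10, with Hoxc4, Hoxd1 and Hoxd13 singly, and among grey bars Skap1 alone passes it.

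The comparison of media was then tested over the days. With the 4 days as repeats, limma called 0 of 18194 genes (0.0%), 1651 genes had an unadjusted p under 0.05, and 1 member did: Nkx1-2, at 2.00 ± 0.60 (SE) with an adjusted p of 0.540. Cdx2 was 1.78 ± 0.79 with an adjusted p of 0.555. A steady change of the difference with day was called by limma for 0 genes as well (0.0%), with 1857 genes and 20 of the 37 members at an unadjusted p under 0.05. The steepest members were Cdx2 at 1.70 ± 0.27 per day and Nkx1-2 at 1.30 ± 0.19 per day, and the lowest adjusted p of a member was 0.221.

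The third limma fit estimated 1 difference shared by day 2.5 and day 3.5 and left the first 2 days to the spread. It was set up with the late response of these data known, so its p-values describe rather than test. It called 206 genes higher in Dox- (1.13% of all genes) and 4 members. Cdx2 was higher by 3.77 ± 0.24 (adjusted p = 0.00208), Nkx1-2 by 3.48 ± 0.31 (0.00491), Hoxb1 by 1.43 ± 0.17 (0.012) and Hoxb2 by 2.46 ± 0.42 (0.0312). These were the members already apart on day 2.5. With the mean of all its probe sets in place of the brightest, Nkx1-2 was higher by 1.18. Hoxb2 was not called by limma with a pseudocount of 64 (adjusted p = 0.0772) or without the arrays of day 1.5 (0.0507). Cdx4, at 1.82 ± 0.51, was not called (0.121), but was with a pseudocount of 1 (0.0217). Without the arrays of day 0.5 limma called Cdx2 and Nkx1-2, without those of day 3.5 it called Cdx2 only, and without those of day 2.5 it called 18 members.

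The last limma fit, added after the values were seen and likewise a description, set day 3.5 against the spread of the other 3 pairs. It called 53 genes higher in Dox- (0.291% of all genes) and 12 members: Cdx4, Hoxa9, Hoxa10, Hoxb5, Hoxb6, Hoxc4, Hoxc8, Hoxc9, Hoxd1, Hoxd8, Hoxd9 and Hoxd10. The lowest adjusted p values in this limma fit were 0.00955 for Hoxc8 (3.74 ± 0.23) and for Hoxd10 (2.48 ± 0.16), followed by 0.0119 for Hoxd9 (3.97 ± 0.30) and Hoxb5 (1.95 ± 0.14). Hoxb3 (adjusted p = 0.0537 by limma) and Hoxc10 (0.0629) fell just outside. Cdx2 (0.350) and Nkx1-2 (0.366) were not called because their day 2.5 difference counted as spread. All 12 calls were lost with a pseudocount of 1 and on leaving out the arrays of day 0.5 or those of day 1.5, and the Hox differences of day 3.5 rest on 1 Dox- array.

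Partners and regulators of Hox genes were compared through lists of known genes. Of 9 measured cofactor genes, those of the Pbx, Meis and Pknox families, which bind DNA together with Hox proteins, and Pbxip1, which binds Pbx proteins, none was 2-fold apart on day 3.5, and the median was 0.15. Meis3 (0.74), Pknox2 (0.61) and Pbx2 (0.39) were furthest apart. Meis2 was the exception on day 2.5, with 344.7 against 27.5, and on day 3.5 it was 152.0 in Dox- medium, a difference of -0.12. Of 13 chromatin activators and boundary factors, including the Kmt2 methyltransferases and Ctcf, 1 was 2-fold higher in Dox- on day 3.5 (3.17% of all genes). That gene was Kdm6b, a demethylase that removes the repressive H3K27 mark. Its signal was 732.6, and its difference was 1.11. Its relative Kdm6a differed by -0.92 and Psip1 by -0.64. The median of these 13 was 0.05, and limma called none of either list in the fit shared by day 2.5 and day 3.5.

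The genes of the posterior growth zone, where Wnt and Fgf signals keep axial progenitors, differed between media mostly on day 2.5. Of 26 measured, 15 had at least 2-fold more signal in Dox- on day 2.5 and 7 on day 3.5, with medians of 1.53 and 0.23; over all genes the shares were 2.1% and 3.17%. At least 2-fold lower were 1 and 3, where 2.52% and 2.64% of all genes were. Fgf4 (-1.21) was the lower gene of day 2.5, and Wnt8a (-1.75), Fgf4 (-1.13) and Fgf8 (-1.06) were those of day 3.5. Wnt5a (4.13), Rspo3 (2.49) and Fgf3 (2.08) were furthest apart on day 3.5. Wnt5a, a ligand of axis elongation, was 7.8 at most in the Dox- course up to day 1.5, 368.4 on day 2.5 and 1131.7 on day 3.5. Fgf8, the ligand of the streak and tail bud, was 480.6 against 55.1 on day 2.5 and 174.2 against 379.7 on day 3.5, so it went from higher to lower in Dox-. In the limma fit shared by day 2.5 and day 3.5, 7 of the 26 were called higher (1.13% of all genes): Wnt3a, Wnt5a, Wnt5b, Fgf3, Msgn1, Greb1 and Rspo3. Wnt3a and Msgn1 were dim, with 20.0 and 25.9 at most on any array. Brachyury, a defining gene of this zone, was not analysed here.

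Retinoic acid, a known inducer of low-numbered Hox genes, was followed through 19 genes. On day 2.5, 4 were at least 2-fold higher (2.1% of all genes) and 3 lower (2.52%), with a median of 0.15. On day 3.5 it was 3 higher (3.17%) and 1 lower (2.64%), with a median of 0.03. Crabp1, a retinoic acid binding protein, differed by 1.98, Cyp26a1, which degrades retinoic acid, by 1.89, and Tshz1, a trunk regulator, by 1.85. The lower gene was Dhrs3, which turns retinaldehyde back to retinol, at -1.59, and limma called it lower in the fit shared by day 2.5 and day 3.5 (adjusted p = 0.0357; 1.53% of all genes were called lower). Tshz1 was called higher there (1.13% of all genes were). Cyp26a1 had already reached 1528.2 against 10.1 on day 2.5, and the 3 lower genes that day were Crabp2 (-1.69), Rarb (-1.49) and Rarg (-1.26). Aldh1a2, the enzyme that makes retinoic acid in the trunk, gave 17.3 at most on the Dox- arrays.

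**Figure D4:**
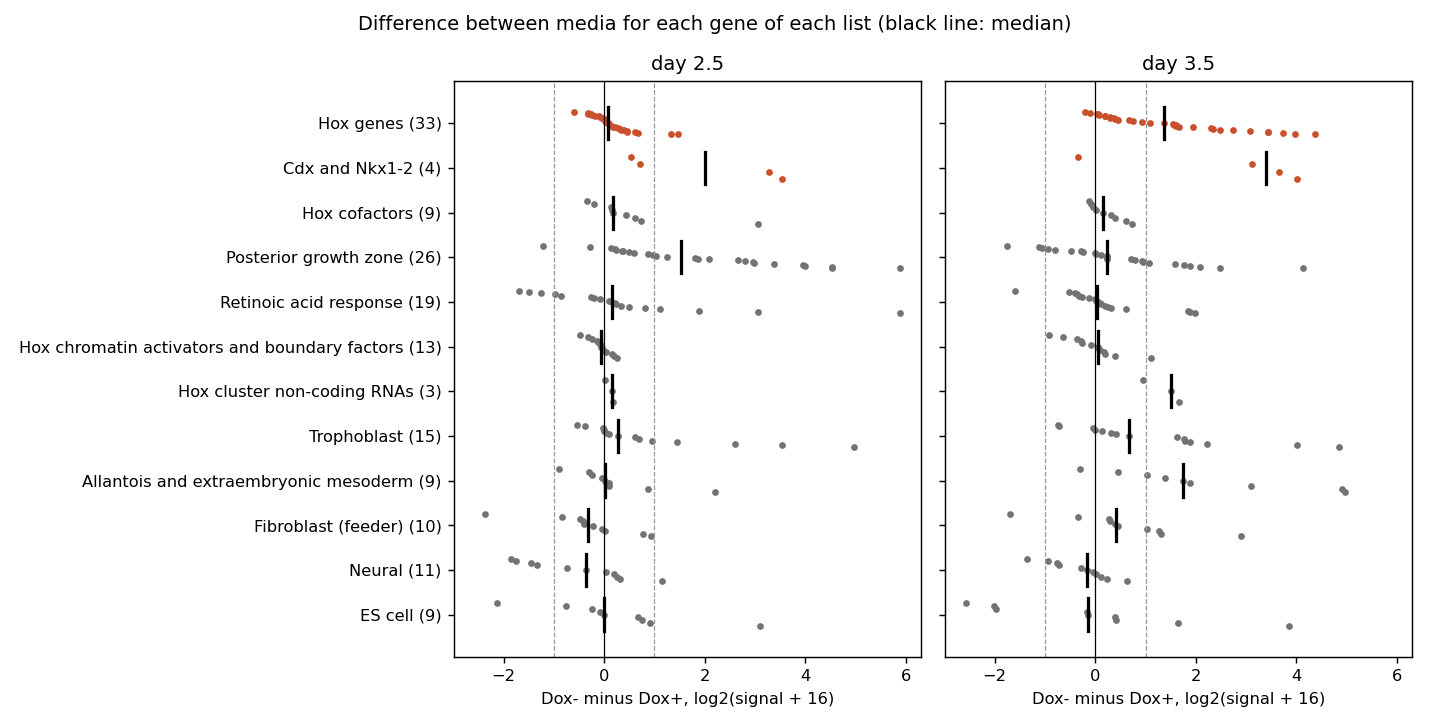
Dox- minus Dox+ difference (log2(signal + 16) scale) of every measured gene of each list on day 2.5 and day 3.5, 1 point per gene, with the number of genes in brackets, medians as black lines and 2-fold as dashed lines. Hox genes had a median of 0.08 on day 2.5 and 1.37 on day 3.5, the posterior growth zone 1.53 and 0.23, and allantois and extraembryonic mesoderm 0.02 and 1.74.

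Markers of other cell types were examined because Cdx2 and Hox genes are used by more than 1 tissue. Of 9 genes of the allantois and extraembryonic mesoderm, 7 had at least 2-fold more signal in Dox- on day 3.5 (3.17% of all genes). Their median was 1.74. On day 2.5, 1 of the 9 had (2.1% of all genes). Bmp4, a ligand of this mesoderm, differed by 4.96, Tbx4, a T-box gene of allantois and hindlimb, by 4.90 and Ahnak by 3.09. Tbx4 was 486.8 on Dox- day 3.5 and 6.7 or less on the other 8 arrays. Vcam1, an adhesion gene of the allantois, was dim on all arrays and differed by -0.31 (3.0 against 7.6), and Postn was 13.4 at most. The summed signal lay between 626.9 and 1448.0 on the other 8 arrays and was 4302.6 on Dox- day 3.5, the array on which the Hox genes were bright. Most of that sum was Bmp4 (1354.8), Ptch1 (1205.3) and Ahnak (1056.3), and Ptch1 was higher still on Dox+ day 1.5, at 1365.1.

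Of 15 trophoblast genes, 7 were at least 2-fold higher on day 3.5 (3.17% of all genes) and none lower (2.64%). The median was 0.66, and Cdx2 is itself one of these genes. Plac1 differed by 4.84 and Krt8 by 2.23. Regulators in the list were Hand1 (97.4, a difference of 1.89), Gata3 (63.3, 1.76), Tfap2c (162.3, 1.62), Ets2 (154.4, 0.13), Esx1 (2.0, -0.71) and Eomes (540.3, -0.74). Tfap2c was brighter in undifferentiated cells, at 262.9. On day 2.5 Eomes was 1807.8 in Dox- against 42.2 in Dox+ medium. In the limma fit shared by day 2.5 and day 3.5, Cdx2, Gata3 (adjusted p = 0.00491) and Tfap2c (0.0149) were called higher, as were 1.13% of all genes. Elf5 was 3.2 (-0.01), Ascl2 6.0 (0.31) and Tpbpa 12 (0.415). The summed signal was 8356.4 against 2618.7 in Dox+ medium and 331.7 to 3602.7 on the 7 remaining arrays, and most of it was Krt18 (3003.9) and Krt8 (2608.7), keratins of many simple epithelia.

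Of 10 fibroblast (feeder) genes, 4 were at least 2-fold higher (3.17% of all genes) and 1 lower (2.64%) on day 3.5. Col1a1 was 156.7 against 7.3 (2.89), Twist1 67.0 (1.31), Col1a2 137.2 (1.27) and Col3a1 29.4 (1.04). Dcn was 8.2 against 62.8 (-1.70), and Lum was 5.3. The sum was 464.1 against 195.4 in Dox+ medium and 57.4 to 230.1 on the 7 remaining arrays.

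Of 11 neural genes, none was 2-fold higher on day 3.5 (3.17% of all genes) and 1 was lower (2.64%), with a sum of 144.2 against 200.7. Sox1 (-1.35), Map2 (-0.94) and Neurod1 (-0.77) were furthest apart. Of 6 hindbrain genes, 1 was higher (3.17% of all genes), with a median of 0.12. Fgf3 (2.08), Epha4 (0.63) and Gbx2 (0.30) were furthest apart. Of 9 ES cell genes, 2 were higher (3.17% of all genes) and 3 lower (2.64%). Their sum was 2479.1 in Dox- and 5547.4 in Dox+ medium, against 18716.9 before differentiation. Tbx3, also a gene of mesoderm, differed by 3.85, Nanog by -2.56 and Dppa5a by -2.01. The part that the kinds of cells on each array had in the Hox differences was not tested.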

How the data were processed

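1 RNA sample of each of the 9 groups was hybridised to 1 mouse Affymetrix array each. The authors deposited 1 linear intensity per probe set, made with GCOS per the submitters' processing notes. Its version, background correction and filters are not given in the labels or notes used here. Per the labels each array was scaled to a mean of 100, and the mean of the 45101 deposited intensities without the top and bottom 2% was 100 on each array. No scanner files were used, so depth has no counterpart beyond the number of arrays.

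Of the probe sets, 34958 had 1 symbol, 932 several and 9211 none, including 64 controls; 34754 were updated by gene ID to RefSeq names (GRCm38.p6). The brightest probe set stood for its gene (18194 genes). Python 3.11.15 with pandas 2.3.3 and R 4.3.3 with limma 3.58.1 were used. limma (lmFit, eBayes with trend) was fitted on log2(signal + 16) of all genes in the 8 differentiating arrays with day as a block, with Benjamini-Hochberg adjustment at 0.05; residual degrees of freedom were 3, or 2 for the slope. P-values measure only the spread between these arrays. On simulated data of 18194 genes, 100 were changed by 1 log2 unit, or by 1 log2 unit per day for the slope. The fits recovered 61% over 4 days, 53% of slopes, 36% for day 2.5 and day 3.5 shared, and 8% for day 3.5 alone. At 2 log2 units, again per day for the slope, recovery was 98%, 86%, 84% and 40%. Recovery by the 4-day fit of a difference present only on day 2.5 and day 3.5 was not tested. Single days had no test.

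Members and gene lists were chosen with earlier results of these data known. All 9 arrays are given for Cdx1, Cdx2, Cdx4, Nkx1-2 and for Hox genes at least 2-fold apart on any day or at 50 on any array; of each other list the 3 genes furthest apart on day 3.5, with others named for their role after their values were seen. Alternatives were pseudocounts of 1 and 64, a filter of 50 on 2 arrays, 50 on the brighter array, a 4-fold threshold, the mean of all probe sets, quantile normalization, median scaling, eBayes without trend, no day block and leaving out each day. Shared probe sets are described at the end.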

Additional observations from a re-analysis of the deposited data

Results flagged for a closer look

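Signal appeared on probe sets that no comparison used because they carry several gene symbols. A probe set shared by Hoxb8 and Hoxb7 had 8.9 or less on the other 8 arrays and 48.2 on the Dox- array of day 3.5, a difference between media of 1.5 on the log2(signal + 16) scale. Of a pair of probe sets shared by Hoxd4 and Hoxd3, one had 5.4 or less elsewhere and 20.8 on Dox- day 3.5, a difference of 1.18; the other differed by 0.74. Hoxb8 and Hoxd4 have no probe set of their own among the members, and the probe sets of Hoxb7 and Hoxd3 alone differed by 0.08 and 0.37.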

How the results depend on the processing

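Each group is 1 array, so the Hox differences of day 3.5 have no replicate, and signals under 50 lie where array values vary most against their size. Media were paired by day; without day as a block the 4-day fit called 0 genes as well. The 4 members at least 2-fold higher on day 2.5 became 15 with a pseudocount of 1 and 2 with a pseudocount of 64, with a filter of 50 on 2 arrays, with 50 asked of the brighter array or at 4-fold. The 21 of day 3.5 became 13 with a pseudocount of 64 or at 4-fold, and 2 with the filter, which only Cdx2 and Nkx1-2 pass. The slope was called for 31 genes without day 0.5 in place of 0. The limma fit shared by day 2.5 and day 3.5 called 484 genes, but 57 without day 0.5 and 124 without day 3.5; its 4 members became 2 with the filter or without day 0.5, 18 without day 2.5 and 1 without day 3.5. The fit of day 3.5 alone, added after seeing the data, called 72 genes. It called 18 with a pseudocount of 1, 145 with a pseudocount of 64, 14 with the filter, 0 without day 0.5, 0 without day 1.5 and 388 without day 2.5, and its 12 members became 0 with a pseudocount of 1, with the filter, without day 0.5 and without day 1.5. Fewer arrays or fewer genes enter the fits without a day or with the filter; for the pseudocount the cause was not tested. Of 206 values of single genes under the alternatives, 161 kept direction and side of the threshold, 43 no longer passed it, 2 newly passed it and 0 turned sign. The mean of all probe sets took Nkx1-2 from 3.48 to 1.18 in the shared fit.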
